A study of Mus musculus with 11 samples.

Results

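The interferon response and antigen presentation genes were followed in cultured fetal lung mesenchymal cells that carried both, 1 or no copies of Sp3. Members were chosen by name, as 34 genes known to be induced by interferon or to load peptides on MHC class I. All 34 were found by symbol among the 24062 gene symbols counted. By role they comprised 4 sensors of viral nucleic acid, 6 regulators of the interferon signal, 15 antiviral effectors, 5 interferon-inducible GTPases and 4 genes of antigen presentation. Sp3 is a ubiquitous zinc finger transcription factor that binds GC-rich promoter sequences. The RNA-seq data covered 11 libraries from mouse embryonic day 15 (E15) lungs, 4 of Sp3+/+ (wild type, WT), 4 of Sp3+/- and 3 of Sp3-/- genotype. In all 11, RNA came from the lung cells that attach first to a plastic dish, the mesenchymal fraction, after 2 passages. No treatment or interferon is named for these primary cells. For its separate cells with a temperature-sensitive T antigen the study describes interferon-γ in the growth medium.

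Interferons are secreted proteins that warn neighbouring cells of infection. Type I interferons signal through JAK kinases to factors such as STAT2 and IRF9, which bind the interferon-stimulated response element (ISRE) in the promoters of antiviral genes, whereas interferon-γ acts at the γ-activated sequence (GAS). The same signals raise the immunoproteasome, the TAP peptide transporter and MHC class I, by which a cell displays peptides to CD8+ T cells. Macrophages express several of these genes without stimulation, and most other cells hold them at a low level.

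The libraries held between 9849111 reads on genes (Sp3-/- 697-5) and 59297495 (Sp3+/- 685-5), and between 15688 and 83761 of these fell on the 34 members. Libraries are named by the numbers of their titles, and values are given in the order WT 468-4, 685-2, 697-1 and 697-3, then Sp3+/- 468-3, 685-5, 685-7 and 697-4, then Sp3-/- 685-1, 697-2 and 697-5. Levels are in CPM, the reads of a gene relative to all reads on genes with library totals scaled by trimmed mean of M-values (TMM) factors, and differences are on a log2 scale. Sp3 itself, the check of the labels, was at 92, 60.7, 107 and 78.8 CPM in WT, at 51.8, 63.2, 71.6 and 56.2 CPM in Sp3+/- and at 18.9, 18.3 and 14.4 CPM in Sp3-/- cells. The labels do not say whether libraries of a genotype came from separate embryos, so p-values measure the spread between these libraries.

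Titles of 6 libraries carry a suffix of 2 or 3, whose meaning is not given, and 5 carry none. All 3 Sp3-/- libraries lack a suffix, as do WT 468-4 and Sp3+/- 697-4, although the name of the count table of 697-4 holds a 2. Since no Sp3-/- library carries a suffix, genotype and suffix can be separated only through WT 468-4 and Sp3+/- 697-4. These 5 libraries also stood apart in macrophage markers. The summed level of 18 macrophage markers was 3750 CPM in WT 468-4, 3460 CPM in Sp3+/- 697-4 and 3580, 13100 and 11600 CPM in Sp3-/- cells, against 422 to 1010 CPM in the 6 libraries with a suffix. The macrophage markers of highest level were Lyz2, Laptm5 and Cd68, and only Cd163 was near 0. Summed lymphocyte markers reached at most 0.89 CPM in any library. The same 5 libraries were the lowest in the summed level of 14 mesenchyme markers. It was 26400 CPM in WT 468-4, 26300 CPM in Sp3+/- 697-4 and 29100, 23800 and 10900 CPM in Sp3-/- cells, against 34100 to 38100 CPM in the 6 libraries with a suffix. In bulk RNA, more cells of a type and more RNA per cell cannot be told apart. The main results are therefore given also with the title suffix as a covariate (all 11 libraries) and within the 5 libraries without a suffix, where the 3 Sp3-/- libraries were set against the other 2, the latter a choice made after the data were seen.

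Levels of the members in WT cells spanned several orders of magnitude. Per kilobase of transcript, B2m, the light chain of every MHC class I molecule, was highest with 590±105 CPM per kb (mean±s.d., n=4). It was followed by Irgm1 at 42.9±4.89, Bst2 at 41.2±11.1, Irf1 at 16.7±1.41 and Ddx58 at 15.7±3.51 CPM per kb. The spreads of Irgm1 and Bst2 overlap, as do those of Irf1 and Ddx58. Psmb8 (2.46±1.24), Oas1a (0.507±0.182) and Rsad2 (0.412±0.201 CPM per kb) lay far below, and Mx1 was lowest with 0.0594±0.0471 CPM per kb. Zbp1 and Mx1 never exceeded 1 CPM and were not tested. Oas2 exceeded 1 CPM in Sp3-/- libraries only, so that it could be tested only because it was high there. The mouse Mx1 and Mx2 loci are annotated in RefSeq as transcribed pseudogenes.

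Promoter windows of 300 bases (250 before and 50 after the start site) were available from RefSeq (GRCm38.p6) for 27 members, in 31 windows. An exact ISRE match (GAAA, any 2 bases and GAAA again, on either strand) occurred in 15 of the 31 windows (48.4%), against 3.44% of all 32851 windows. A GAS match (TTCNNNGAA, which reads the same on both strands) occurred in 8 member windows (25.8%) against 8.3% of all. A GC box (GGGCGG, either strand), the letters to which Sp factors are known to bind, occurred in 15 (48.4%) against 35.7%. A match describes letters only and is not a measured binding site. The windows below belong to the 4 members with an ISRE match that were called in Sp3-/- cells against both other genotypes, and to Isg15, which has the most ISRE matches of the 31 windows. Each is printed 5′ to 3′ on the strand of the gene, with its ISRE matches in capitals.
Ifih1, chr2:62646206-62646505, minus strand: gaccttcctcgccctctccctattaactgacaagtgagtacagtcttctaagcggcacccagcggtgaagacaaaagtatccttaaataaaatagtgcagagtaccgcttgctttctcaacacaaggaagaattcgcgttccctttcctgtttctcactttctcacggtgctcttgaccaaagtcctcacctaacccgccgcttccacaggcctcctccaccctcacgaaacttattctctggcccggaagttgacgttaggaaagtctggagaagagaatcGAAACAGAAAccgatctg
Oas1a, chr5:120907476-120907775, minus strand: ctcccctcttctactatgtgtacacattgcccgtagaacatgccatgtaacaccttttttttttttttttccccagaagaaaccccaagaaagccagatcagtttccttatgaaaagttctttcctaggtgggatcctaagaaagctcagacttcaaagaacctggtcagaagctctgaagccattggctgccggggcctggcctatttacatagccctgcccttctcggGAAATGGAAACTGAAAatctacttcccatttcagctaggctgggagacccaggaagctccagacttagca
Bst2, chr8:71537423-71537722, minus strand: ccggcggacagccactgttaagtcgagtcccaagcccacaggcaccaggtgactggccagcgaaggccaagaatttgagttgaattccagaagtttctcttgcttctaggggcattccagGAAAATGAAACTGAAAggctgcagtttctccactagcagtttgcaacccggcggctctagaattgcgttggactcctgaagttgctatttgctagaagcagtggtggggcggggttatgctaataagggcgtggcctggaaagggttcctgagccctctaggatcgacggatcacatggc
B2m, chr2:122147437-122147736, plus strand: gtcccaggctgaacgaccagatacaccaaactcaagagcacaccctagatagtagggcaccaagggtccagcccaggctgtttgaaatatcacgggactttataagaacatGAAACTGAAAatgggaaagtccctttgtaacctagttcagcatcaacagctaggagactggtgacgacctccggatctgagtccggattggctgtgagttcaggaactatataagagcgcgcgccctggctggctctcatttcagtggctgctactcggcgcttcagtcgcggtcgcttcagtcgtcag
Isg15, chr4:156200769-156201068, minus strand: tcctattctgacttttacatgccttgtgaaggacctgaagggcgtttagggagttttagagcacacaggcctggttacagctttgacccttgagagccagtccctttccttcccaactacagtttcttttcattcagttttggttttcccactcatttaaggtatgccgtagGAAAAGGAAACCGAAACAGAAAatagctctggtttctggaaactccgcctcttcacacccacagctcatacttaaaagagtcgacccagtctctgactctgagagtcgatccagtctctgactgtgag

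The match begins 32 bases after the start site in Ifih1 and 139 bases before it in B2m. In Oas1a matches begin 20 and 14 bases before the start, in Bst2 130 and 124 bases before, and in Isg15 78, 72 and 66 bases before, so that in these 3 genes successive matches overlap and are printed as 1 run. In Bst2 a GAS match that begins 136 bases before the start overlaps the first ISRE match, and in Oas1a a GAS match begins 98 bases before. No ISRE match lay in the windows of Trim25, Oasl2 or Psmb8, which says only that these letters are not in these windows.

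In Sp3-/- cells 9 of the 32 members tested were higher than in WT and 2 were lower at an adjusted p below 0.05 (edgeR quasi-likelihood test, Benjamini-Hochberg over 14025 genes). The background over all genes tested was 18.5% called, 8.76% higher and 9.77% lower. The higher members were the sensor Ifih1, the regulator Trim25, the effectors Oas1a, Rsad2, Parp14, Oasl2 and Bst2, and the presentation genes Psmb8 and B2m, whereas Ifit2 and Tap1 were lower. The median difference of the 32 members was 0.55 on the log2 scale, with 0 over all genes. With the title suffix as a covariate 4 members remained higher (Oasl2, Bst2, Parp14 and Ifih1) and 0 lower, where 9.41% of all genes were called, 3.6% higher and 5.8% lower. Within the 5 libraries without a suffix edgeR called 0 members and 0.347% of all genes, 0.0796% higher and 0.268% lower. There 11 members had an unadjusted p below 0.05, where 21% of all genes did. DESeq2 and limma-voom were not run in that subset. The median stayed at 0.54 in both.

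**Figure D1:**
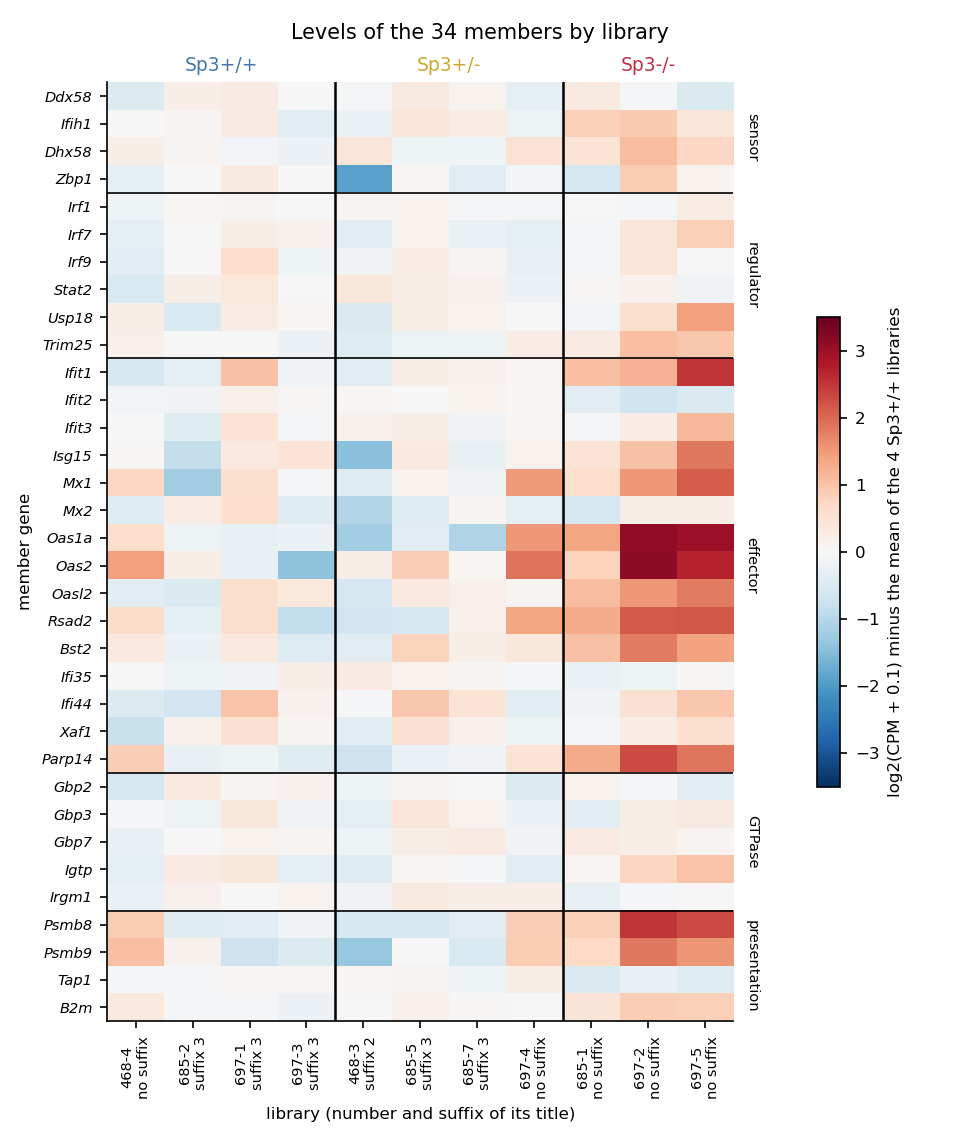
Heat map of the 34 members (rows, grouped by role) in the 11 libraries (columns, grouped by genotype, with the title suffix). Colour is log2(CPM + 0.1) minus the mean of the 4 WT (Sp3+/+) libraries. Oas1a, Oas2, Rsad2, Psmb8 and Parp14 are red in all 3 Sp3-/- libraries and also in WT 468-4 and Sp3+/- 697-4, whereas Oasl2, Ifih1 and Bst2 stand out mainly in Sp3-/- libraries.

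Among the sensors, Ifih1 (MDA5, a detector of long double-stranded RNA, at chr2:62595618-62646255) was at 10.2, 11.1, 12.5 and 7.91 CPM in WT, at 8.99, 13.8, 12.4 and 9.07 CPM in Sp3+/- and at 18.5, 19.6 and 13.9 CPM in Sp3-/- cells. All 3 Sp3-/- libraries lay above the 8 others, 697-5 only just. The difference from WT was 0.73±0.19 (log2, ±s.e., adjusted p=0.0384, edgeR), and 0.92 once the suffix was a covariate (adjusted p=0.0480). Ddx58, which encodes the RNA sensor RIG-I, was at 42.4 to 72.1 CPM in WT and at 74.8, 57.8 and 42.1 CPM in Sp3-/- cells, and these groups overlapped (log2 difference -0.07±0.24, adjusted p=0.8551, edgeR). Dhx58 (LGP2, a helicase that modulates both) had a difference of 0.80±0.26 that missed the threshold (adjusted p=0.0632, edgeR), although DESeq2 called it (adjusted p=0.0296). Zbp1, a sensor of Z-form nucleic acid, stayed at or below 0.587 CPM throughout.

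Of the regulators only Trim25 was called. Trim25, a ubiquitin ligase that acts on RIG-I, was at 59.8, 52.1, 53 and 45.8 CPM in WT, at 38.7, 46.4, 46.1 and 62.5 CPM in Sp3+/- and at 64.4, 108 and 101 CPM in Sp3-/- cells. Its difference from WT was 0.79±0.19 (adjusted p=0.0323, edgeR), but library 685-1 exceeded WT 468-4 and Sp3+/- 697-4 by little. With the suffix covariate the difference was 0.53 and was not called (adjusted p=0.1513, edgeR). The members that carry the interferon signal to the nucleus were not called. Stat2 was at 30.2 to 55.8 CPM in WT and 39.9 to 48.6 CPM in Sp3-/- cells (log2 difference -0.02±0.20), Irf9 at 16.5 to 33 against 21.2 to 29.6 CPM (0.10±0.25) and Irf1, a transcription factor induced by interferon-γ, at 31.4 to 38 against 34.8 to 42.8 CPM (0.08±0.12). Irf7, the amplifier of type I interferon genes, differed by 0.44±0.28 and Usp18, which restrains the receptor, by 0.73±0.40, neither called. Usp18 was at 1.91 to 3.40 CPM in WT and at 2.66, 4.20 and 7.91 CPM in Sp3-/- cells, and the groups overlapped.

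The effectors held the largest differences. Oas1a, which makes the 2-5A signal of antiviral defence, was at 1.49, 0.82, 0.768 and 0.80 CPM in WT, at 0.354, 0.683, 0.402 and 2.87 CPM in Sp3+/- and at 2.58, 8.73 and 8.11 CPM in Sp3-/- cells. All 3 Sp3-/- libraries were above the 4 WT libraries, but Sp3+/- 697-4 was above Sp3-/- 685-1. Its log2 difference from WT of 2.71±0.48 (adjusted p=0.0153, edgeR) was the largest of the 32 members tested and fell to 1.54 once the suffix was a covariate (adjusted p=0.1596). Reads shared with its close paralogs, such as Oas1g, are dropped by counting only uniquely aligned reads, so its level is uncertain.

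Rsad2 (viperin) and Parp14, an ADP-ribosyltransferase, showed a similar order of libraries. Rsad2 was at 2.27, 1.09, 2.14 and 0.741 CPM in WT, at 0.85, 0.905, 1.61 and 3.82 CPM in Sp3+/- and at 3.61, 6.63 and 6.71 CPM in Sp3-/- cells, with a difference from WT of 1.84±0.45 (adjusted p=0.0326, edgeR). Parp14 was at 18.1, 8.4, 8.78 and 7.44 CPM in WT, at 5.95, 8.47, 9.23 and 13.9 CPM in Sp3+/- and at 24.8, 48.8 and 36.7 CPM in Sp3-/- cells (1.78±0.36, adjusted p=0.0219, edgeR). Both were higher in each library without a suffix than in any library with one. With the suffix covariate Parp14 was still called (1.17, adjusted p=0.0349, edgeR), but Rsad2 was not (0.98, adjusted p=0.2740). Oas2, a larger enzyme of the Oas1a family, was at 0.618, 0.205, 0.121 and 0 CPM in WT and at 0.364, 2.23 and 1.60 CPM in Sp3-/- cells, and was not called (adjusted p=0.1207, edgeR).

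Bst2 and Oasl2 did not follow that order. Bst2 (tetherin, which holds budding virus at the cell surface, at chr8:71534255-71537472) was at 41, 27.9, 40.8 and 23.4 CPM in WT, at 24.9, 55.8, 37 and 42.5 CPM in Sp3+/- and at 65.6, 114 and 85.6 CPM in Sp3-/- cells. The 3 Sp3-/- libraries were above all 8 others. The difference from WT was 1.41±0.26 (adjusted p=0.0169, edgeR) and 1.27 once the suffix was a covariate (adjusted p=0.0476). Oasl2, a 2-5A synthetase-like protein, was at 1.85, 1.71, 3.68 and 3.20 CPM in WT, at 1.63, 3.19, 2.79 and 2.63 CPM in Sp3+/- and at 5.30, 7.33 and 9.01 CPM in Sp3-/- cells. Again the Sp3-/- libraries were above all 8 others, and the difference was 1.45±0.35 (adjusted p=0.0304, edgeR), or 1.76 once the suffix was a covariate (adjusted p=0.0310). WT 468-4 and Sp3+/- 697-4, both without a suffix, lay among the other WT and Sp3+/- values of Oasl2. Summed macrophage markers were 3750 and 3460 CPM in these libraries, and 13100 and 11600 CPM in Sp3-/- 697-2 and 697-5. The part of macrophage RNA in Oasl2 was not tested.

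The classical interferon-stimulated genes Ifit1 and Isg15 were higher in Sp3-/- cells without passing the test. Ifit1, which binds viral RNA lacking a host cap, was at 2.16, 2.53, 6.63 and 2.93 CPM in WT and at 6.73, 7.63 and 18.7 CPM in Sp3-/- cells (1.61±0.52, adjusted p=0.0680, edgeR). Isg15, a ubiquitin-like protein, was at 2.58, 1.37, 3.19 and 3.53 CPM in WT and at 3.53, 5.24 and 9.31 CPM in Sp3-/- cells (1.14±0.43, adjusted p=0.0947, edgeR). In both genes the Sp3-/- libraries were above the WT and Sp3+/- libraries, in 685-1 by almost nothing, and 697-5, the smallest library, was highest. DESeq2 called both (adjusted p=0.0106 and 0.0381).

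Ifit2, a relative of Ifit1 that lies in the same gene cluster on chromosome 19, went the other way. It was at 38.6, 37.4, 46.3 and 41.8 CPM in WT, at 42.7, 40.5, 44.5 and 41.7 CPM in Sp3+/- and at 31, 25 and 29 CPM in Sp3-/- cells, with a difference from WT of -0.54±0.12 (adjusted p=0.0266, edgeR). The 3 Sp3-/- libraries were below all 8 others. With the suffix covariate the difference was -0.49 (adjusted p=0.0580, edgeR). Ifit3, between them in position, was at 5.88 to 11.2 CPM in WT and at 7.62, 9.59 and 17.5 CPM in Sp3-/- cells and was not called (0.48±0.34), and its count is uncertain because a near-identical copy, Ifit3b, lies beside it. The other effectors Ifi35, Ifi44, Xaf1 and Mx2 had differences of -0.13, 0.34, 0.20 and -0.10 and were not called, and Mx1 was at most 0.901 CPM.

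**Figure D2:**
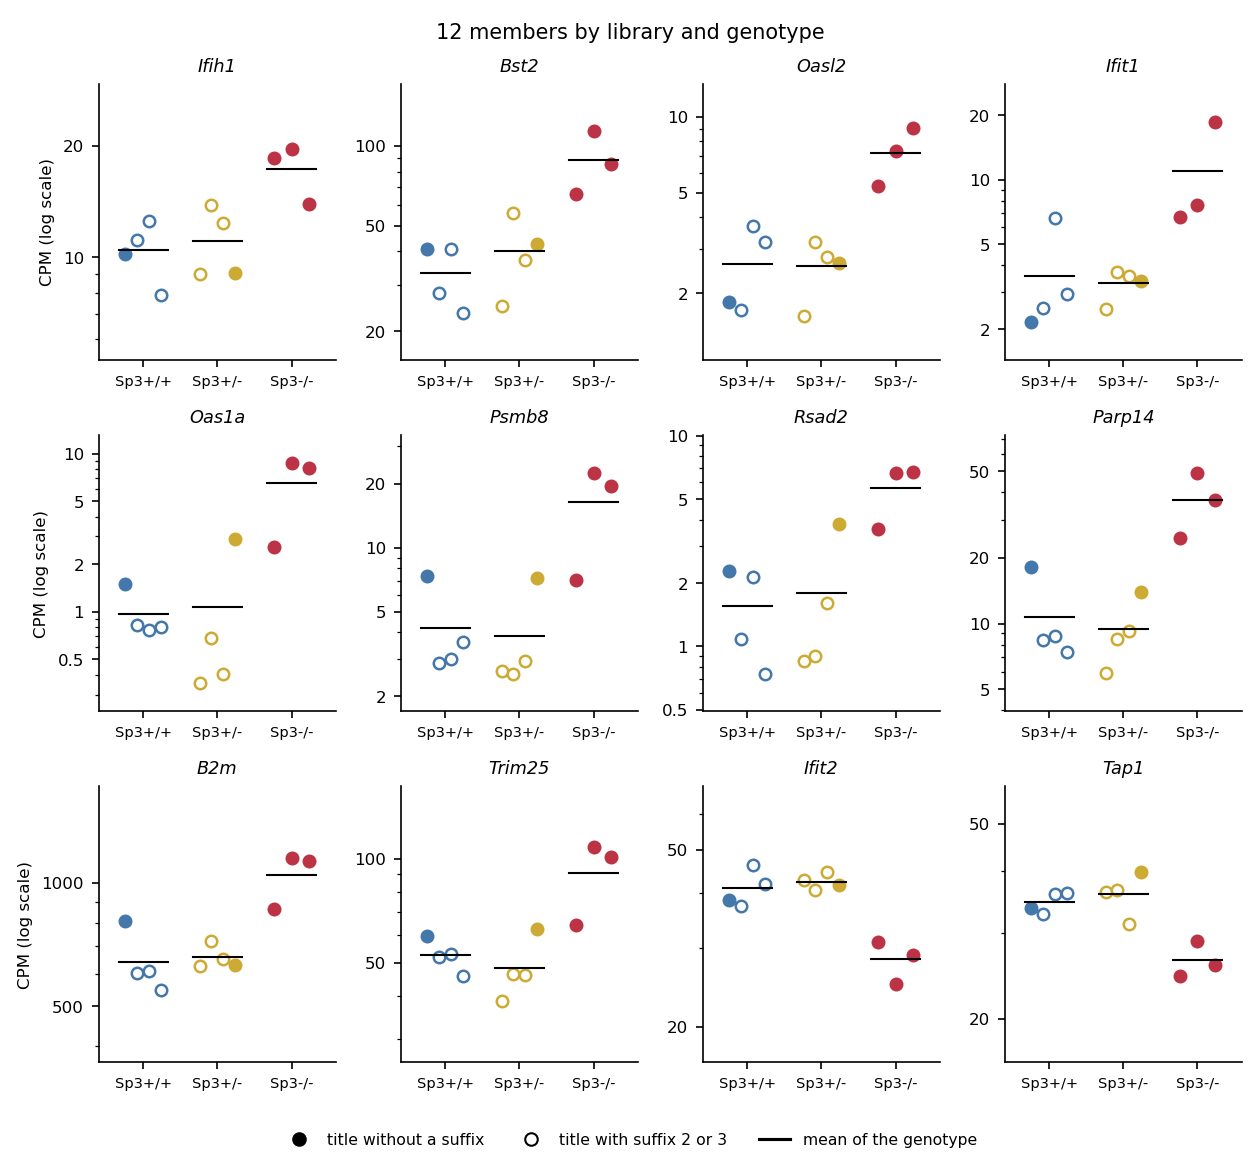
Levels of 12 members (CPM, log scale) in WT (Sp3+/+), Sp3+/- and Sp3-/- libraries. Points are libraries, filled where the title has no suffix, and lines are genotype means. In the middle row the filled WT and Sp3+/- points lie above the open ones, whereas in Ifih1, Oasl2 and Ifit1 they lie among or below them. Ifit2 and Tap1 are lower in all 3 Sp3-/- libraries.

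None of the 5 interferon-inducible GTPases, proteins that attack the vacuoles of intracellular microbes, was called. Irgm1 was at 75.6 to 97.9 CPM in WT and at 74.1, 84.1 and 90.2 CPM in Sp3-/- cells (-0.11±0.13). Gbp2 was at 9.60 to 18.4 against 15.7, 14.1 and 11 CPM (-0.13±0.24), Gbp3 differed by 0.05±0.27 and Gbp7 by 0.19±0.18. Igtp (Irgm3) had the largest value, 0.62±0.33, with 3.33, 5.42 and 6.41 CPM in Sp3-/- cells and 2.49 to 4.21 CPM in WT (adjusted p=0.2035, edgeR). With the suffix covariate all 5 had differences above 0, from 0.01 in Irgm1 to 0.95 in Igtp, none of them called.

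The 4 presentation members did not move together. Psmb8 and Psmb9 are the interferon-inducible catalytic subunits of the immunoproteasome, Tap1 is a chain of the transporter that carries peptides into the endoplasmic reticulum, and B2m completes the class I molecule. Psmb8 was at 7.33, 2.87, 2.99 and 3.59 CPM in WT, at 2.62, 2.56, 2.95 and 7.19 CPM in Sp3+/- and at 7.03, 22.6 and 19.6 CPM in Sp3-/- cells. Its difference from WT was 1.96±0.49 (adjusted p=0.0344, edgeR), but the groups overlapped, since 685-1 was below WT 468-4 and Sp3+/- 697-4. With the suffix covariate Psmb8 was not called (1.08, adjusted p=0.1608, edgeR). Psmb9 was at 1.88, 0.957, 0.485 and 0.593 CPM in WT, at 0.283, 0.854, 0.559 and 1.69 CPM in Sp3+/- and at 1.46, 3.38 and 2.70 CPM in Sp3-/- cells, and was not called (1.34±0.53, adjusted p=0.1105, edgeR). Like Psmb8 it was higher in each of the 5 libraries without a suffix than in the 6 with one.

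Tap1 (chr17:34187556-34197225) was lower in Sp3-/- cells, at 24.5, 28.8 and 25.8 CPM, than in WT with 33.7, 32.7, 35.9 and 36.2 CPM or Sp3+/- with 36.3, 36.7, 31.3 and 39.8 CPM. The groups did not overlap, and the difference from WT was -0.40±0.10 (adjusted p=0.0329, edgeR), or -0.47 once the suffix was a covariate (adjusted p=0.0523). Tap1 and Psmb9 are transcribed away from each other from start sites 226 bases apart, and their promoter windows share 275 bases. The Tap1 window is shown because it lies before both genes, of which Tap1 alone was called, with its GC box match in capitals on the reverse strand (CCGCCC), 176 bases before the Tap1 start site.
Tap1, chr17:34187306-34187605, plus strand: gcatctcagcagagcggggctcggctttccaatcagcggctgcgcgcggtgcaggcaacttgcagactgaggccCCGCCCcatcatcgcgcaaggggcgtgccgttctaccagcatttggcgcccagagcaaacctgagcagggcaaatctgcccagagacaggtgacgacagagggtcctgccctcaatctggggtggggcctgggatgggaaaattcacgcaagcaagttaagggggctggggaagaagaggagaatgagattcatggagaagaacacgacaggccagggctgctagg
It holds no match to the ISRE or GAS letters searched. Psmb8, the next gene on the plus strand, begins at position 34198195.

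B2m (chr2:122147687-122153082) was at 807, 602, 610 and 547 CPM in WT, at 626, 721, 653 and 630 CPM in Sp3+/- and at 862, 1150 and 1130 CPM in Sp3-/- cells. All 3 Sp3-/- libraries were above the 8 others, 685-1 only just above WT 468-4. The difference from WT was 0.71±0.18 (adjusted p=0.0345, edgeR) and 0.56 once the suffix was a covariate (adjusted p=0.0940).

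Counted by library, the 3 Sp3-/- libraries were above the 4 WT libraries in 11 of the 32 members tested, where 15.1% of all genes were, and below them in 2, where 16.2% of all genes were. Against all 8 other libraries they were above in 8 members (Ifih1, Trim25, Ifit1, Isg15, Oasl2, Bst2, Parp14 and B2m; background 11%) and below in Ifit2 and Tap1 (background 12.8%). The 5 libraries without a suffix were above the 6 with one in 6 members tested (Trim25, Oas1a, Rsad2, Parp14, Psmb8 and Psmb9; background 10.4%) and below them in 0 (background 9.92%). Trim25 and Parp14 belong to both counts. Libraries 697-2 and 697-5 were each the highest of all 11 in 11 of the 34 members, and Sp3+/- 468-3 was the lowest in 10.

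Single libraries mattered for the calls. The calls over all genes moved with those of the members. Leaving out Sp3-/- 697-2 left 0 members and 2.01% of all genes called. In that fit 13 members had an unadjusted p below 0.05, where 27.7% of all genes did. Leaving out WT 685-2 left 2 higher and 0 lower (6.39% of all genes), WT 697-1 left 1 and 0 (5.48%) and WT 697-3 left 1 and 0 (5.74%). Leaving out Sp3-/- 697-5 left 4 higher and 0 lower (10.1%), and Sp3-/- 685-1 left 8 and 1 (16%). Without WT 468-4, the WT library with the most macrophage RNA, 11 were higher and 2 lower, and 29.9% of all genes were called. Among the 11 was Oas2, which could be tested only because it was high in Sp3-/- libraries. Of the 7 fits Bst2 was called in 6, Oas1a in 4 and Parp14 in 3. Ifih1, Trim25, Oasl2, Rsad2, Psmb8, B2m and Ifit2 were called in 2 each, and Tap1 in 1. The median member difference ranged from 0.22 to 0.73 in these 7 fits. The suffix in the name of each count table was also taken as the covariate. That choice was made after the data were seen and leaves WT 468-4 as the only control without a suffix. With it 0 members and 1.15% of all genes were called, and the member median was 0.57. In that fit 8 members had an unadjusted p below 0.05, where 17.4% of all genes did.

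**Figure D3:**
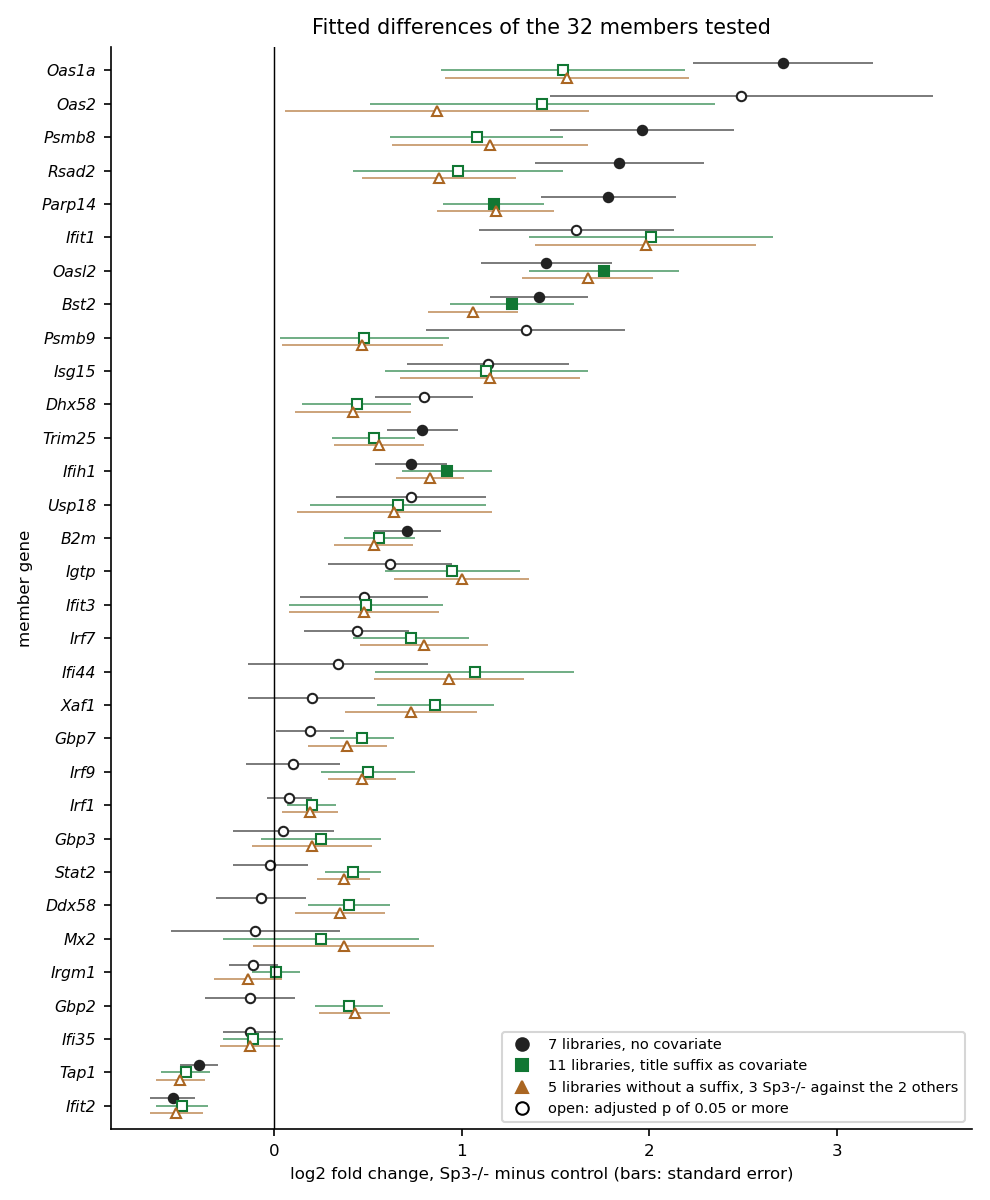
Log2 fold change of Sp3-/- over control for the 32 members tested, with standard errors, in 3 fits: the 7 WT and Sp3-/- libraries, all 11 with the title suffix as a covariate, and the 5 libraries without a suffix. Filled symbols have an adjusted p below 0.05. Oas1a, Psmb8 and Rsad2 are smaller in the fits that hold the suffix constant, whereas Oasl2 is at 1.45, 1.76 and 1.67 and Tap1 at -0.40, -0.47 and -0.50.

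The levels of macrophage markers moved with some of these results. Of 17 macrophage markers tested, 8 were called higher in Sp3-/- than in WT and 0 lower (background 8.76% and 9.77%). Their differences were 1.46 to 3.00 over the 17. With the suffix covariate 0 were called (background 3.6% and 5.8%), with differences of 0.66 to 2.09. WT 468-4, Sp3+/- 697-4 and Sp3-/- 685-1 had nearly the same summed macrophage level and are set side by side as single libraries. Psmb8 was at 7.33, 7.19 and 7.03 CPM in these 3 libraries, Rsad2 at 2.27, 3.82 and 3.61 CPM and Oas1a at 1.49, 2.87 and 2.58 CPM, so that the Sp3-/- library was not the highest in any. Ifih1 was at 10.2, 9.07 and 18.5 CPM, Bst2 at 41, 42.5 and 65.6 CPM, Oasl2 at 1.85, 2.63 and 5.30 CPM and Ifit1 at 2.16, 3.37 and 6.73 CPM. Here the Sp3-/- library was 1.54 to 2.02 times the higher of the other 2. Ddx58 (1.57 times) and Gbp2 (1.51 times), not called between Sp3-/- and WT cells, stood about as far above. The called members Parp14 (1.37 times), B2m (1.07 times) and Trim25 (1.03 times) did so by less. Sp3-/- 685-1 was above both in 18 of the 32 members tested and below both in 11, where 42% and 38.9% of all genes were, and with 1 library each there is no replicate check. The sum is mostly Lyz2, and of the 18 macrophage markers 7 were above both in 685-1, such as C1qa at 68.5, 71.3 and 96.2 CPM. Cx3cr1 at 4.58, 6.25 and 12.4 CPM and Aif1 at 1.40, 1.69 and 2.91 CPM were above by as much as Ifih1, Bst2, Oasl2 and Ifit1. The part of macrophage RNA in the member differences was not tested.

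Markers of other cells differed as well, where 8.76% of all genes were called higher and 9.77% lower in Sp3-/- cells than in WT. Summed mesothelial markers were at 697 to 1660 CPM in WT and at 5660, 2980 and 2030 CPM in Sp3-/- libraries, with 3 of 6 called higher. Summed epithelial markers were at 48.3 to 95.9 and at 415, 193 and 119 CPM, with 4 of 8 tested called higher. Epcam and Cdh1 exceeded 1 CPM in Sp3-/- libraries only, so that they could be tested only because they were high there. The epithelial sum is mostly Krt7 and Krt18 (237 and 104 CPM in 685-1), and Krt19 is on both lists. Of the 8, 6 had differences above 0. Sftpc and Nkx2-1 were at most 0.1 and 0.14 CPM in Sp3-/- libraries, and at 4.51 and 1.16 CPM in WT 685-2, their highest library. Of the 14 mesenchyme markers 0 were called higher and 5 lower in Sp3-/- cells than in WT, and their sum was lowest, at 10900 CPM, in 697-5. That sum was also lower in WT 468-4, at 26400 CPM, than in the other WT libraries with 34100 to 38100 CPM. With the suffix covariate 1 mesenchyme marker was called higher and 3 lower (background 3.6% and 5.8%). Summed endothelial markers stood at 38.1 to 132 CPM (2 of 9 tested called higher) and erythroid markers at 2.31 to 16.3 CPM (1 of 1). The part of these cells in the member differences was not tested.

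**Figure D4:**
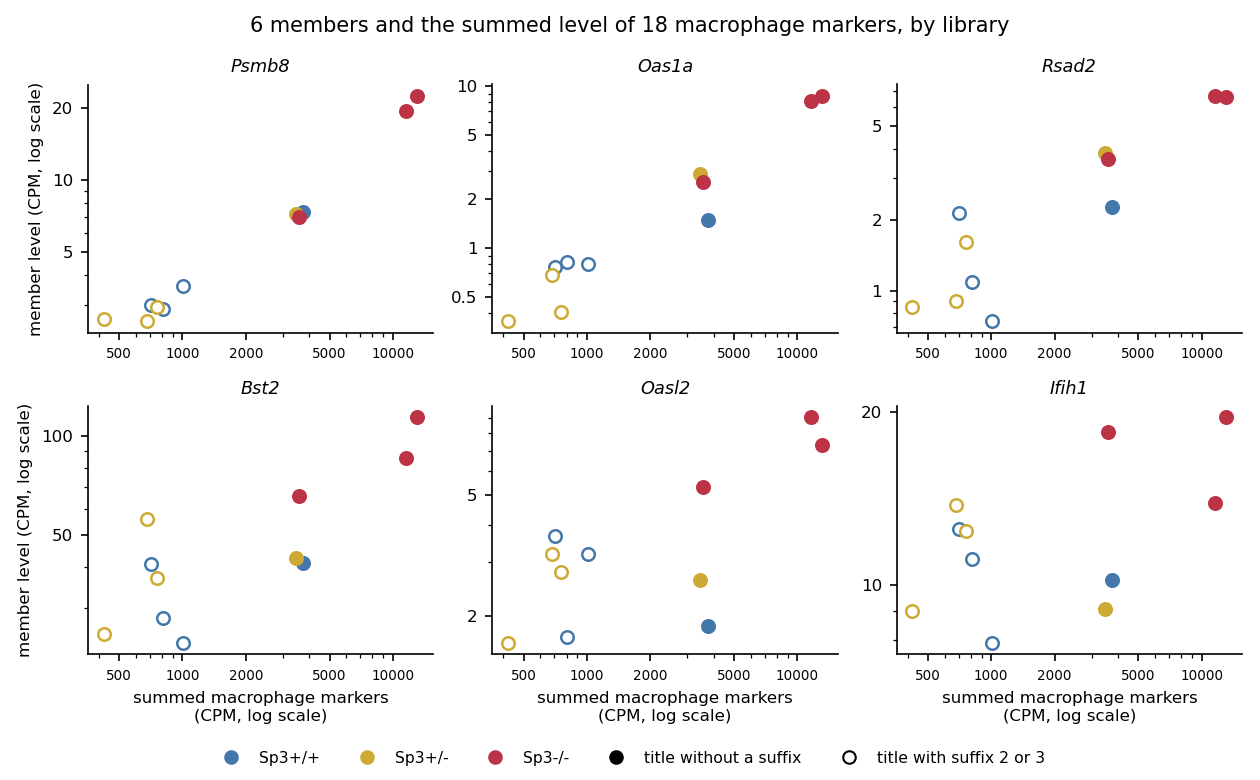
Levels of 6 members (CPM, log scale) against the summed level of 18 macrophage markers (CPM, log scale), 1 point per library, coloured by genotype and filled where the title has no suffix. In the 3 libraries with a macrophage level of 3460 to 3750 CPM, Psmb8 is alike in the WT, Sp3+/- and Sp3-/- libraries, whereas Bst2, Oasl2 and Ifih1 are higher in the Sp3-/- library.

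No difference between Sp3+/- and WT cells was detectable in these genes. Between Sp3+/- and WT cells edgeR called 0 of 14130 genes (0%), and DESeq2 and limma-voom also 0. Sp3 itself was not called (-0.49±0.16, adjusted p=0.9999, edgeR), so differences of that size could be missed here. An unadjusted p below 0.05 was found in 0 members and in 1.74% of all genes. The median member difference was 0.02. The largest values were 0.70±0.95 in Oas2 and -0.44±0.39 in Mx2, both from few reads, and better measured members were close to 0, such as B2m with 0.03±0.14, Irf1 with 0.02±0.10, Tap1 with 0.05±0.09 and Ifit2 with 0.04±0.10. Effects of the size seen in Psmb8 (-0.16±0.48) or Oas1a (0.10±0.67) could not be measured closely, with WT 468-4 and Sp3+/- 697-4 each far above the other libraries of their genotype in both genes. The groups did not separate in either direction for any member, where 0.694% of all genes did each way.

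Sp3-/- cells were then compared with Sp3+/- cells, a comparison that shares the Sp3-/- libraries with the one against WT. Of the 32 members tested 10 were higher and 2 lower (edgeR), where 25.5% of all genes were called, 13% higher and 12.5% lower. In the same fit 15 of 17 macrophage markers were called higher and 0 lower. The part of macrophage RNA in these member differences was not tested. Parp14 was higher by 1.96±0.36 (adjusted p=0.0062), Trim25 by 0.91±0.20 (0.0106), B2m by 0.67±0.15 (0.0114), Oasl2 by 1.47±0.32 (0.0115), Psmb8 by 2.10±0.51 (0.0166) and Bst2 by 1.14±0.28 (0.0181), all by edgeR. Ifit1 (1.73±0.45, 0.0209), Oas1a (2.61±0.70, 0.0233), Ifih1 (0.64±0.20, 0.0376) and Isg15 (1.40±0.46, 0.0478) also passed in this fit of 11 libraries. Rsad2 missed the threshold narrowly (1.66±0.55, adjusted p=0.0506, edgeR). Ifit2 and Tap1 were again lower, by -0.58±0.10 (adjusted p=0.0056, edgeR) and -0.45±0.10 (0.0107). The Sp3-/- libraries were above all 4 Sp3+/- libraries in 9 members tested (background 16.4%) and below them in 2 (background 17.7%). With the suffix covariate Parp14 (1.22, adjusted p=0.0457, edgeR) and Oasl2 (1.61, 0.0497) were the only members called, 2 of the 32, where 5.4% of all genes were called. The count of 10 higher members fell to 6 without Sp3+/- 468-3, 4 without Sp3+/- 685-7 and 5 without Sp3-/- 697-2, where 16.4%, 13.4% and 10.6% of all genes were called, and the 2 lower members were called in each of these fits.

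The rest of the pathway was measured through lists of other genes. No interferon message was found at a level that could be tested. Of 10 interferon genes 7 had 0 reads in every library, among them Ifng, and Ifnb1 and Ifne reached at most 0.10 and 0.0683 CPM. A count of 0 allows up to 3 reads, or 0.0506 to 0.305 CPM depending on the library, for counting error only. The receptor chains were not called between Sp3-/- and WT cells (edgeR), with log2 differences of 0.08±0.11 in Ifnar1, 0.03±0.14 in Ifnar2, 0.14±0.15 in Ifngr1 and 0.16±0.13 in Ifngr2, nor were the kinases Jak1 (0.04±0.16) and Jak2 (-0.01±0.08). Where 8.76% of all genes were higher and 9.77% lower, 2 of 15 receptor and kinase genes were higher and 0 lower. Of these Ptpn6, a phosphatase abundant in blood cells, was at 28.1 and 20.5 CPM in WT 468-4 and Sp3+/- 697-4 and at 4.53 to 8.30 CPM in the libraries with a suffix, and at 32.7, 91.6 and 65.9 CPM in Sp3-/- cells (2.36±0.61, adjusted p=0.0387, edgeR).

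Of 20 genes of nucleic acid sensing and its adaptors 8 were higher in Sp3-/- cells than in WT and 0 lower (background 8.76% and 9.77%). With the suffix covariate the counts were 4 and 0 (background 3.6% and 5.8%). Among the 8 were Irf5 (2.61±0.44, adjusted p=0.0138), Irf8 (2.47±0.58, 0.0303) and Zc3hav1 (0.94±0.20, 0.0232, edgeR). Irf5 and Irf8 are transcription factors of macrophages and other myeloid cells, and both were higher in each library without a suffix than in any with one. Of 36 other interferon-induced genes 34 were found and 29 tested. In these 29, 8 were higher and 1 lower (background 8.76% and 9.77%), and with the suffix covariate 2 and 0 (background 3.6% and 5.8%). Oas3 (2.24±0.64, adjusted p=0.0491), Gbp9 (1.85±0.47, 0.0360), Sp100 (1.40±0.34, 0.0315) and Ddx60 (1.17±0.32, 0.0441, edgeR) had the largest differences among the genes called. Pml, a nuclear body protein named after its value was seen, was the lower gene (-0.81±0.22, adjusted p=0.0436, edgeR), though it was also lower in WT 468-4 with 55.6 CPM than in the other WT libraries with 90.1 to 99.2 CPM.

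Antigen presentation beyond the members was measured in 25 listed genes. Of these 21 were tested, and 9 were higher in Sp3-/- cells than in WT and 0 lower (background 8.76% and 9.77%). With the suffix covariate the counts were 5 and 0 (background 3.6% and 5.8%). The class I heavy chain H2-K1 was at 96.2, 62.6, 56.8 and 41.8 CPM in WT, at 68.8, 68.4, 67.9 and 88.5 CPM in Sp3+/- and at 202, 296 and 277 CPM in Sp3-/- cells. The non-classical chain H2-T23 (Qa-1, a ligand of natural killer cell receptors) was at 15.9, 9.02, 8.29 and 7.91 CPM in WT, at 10.3, 10.8, 10.4 and 12.5 CPM in Sp3+/- and at 38.1, 46.3 and 46.1 CPM in Sp3-/- cells. In both genes each Sp3-/- library was at least 2 times as high as any WT or Sp3+/- library. The difference from WT was 2.01±0.28 in H2-K1 (adjusted p=0.0100, edgeR), or 1.57 once the suffix was a covariate (adjusted p=0.0098). In H2-T23 it was 2.07±0.26 (adjusted p=0.0083, edgeR), or 1.65 with the covariate (adjusted p=0.0049), and 1.59 within the 5 libraries without a suffix (adjusted p=0.0450).

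H2-M3 (2.11±0.44, adjusted p=0.0231) and the class I transactivator Nlrc5 (2.55±0.58, 0.0282, edgeR) were also higher, but Nlrc5 was at 6.51 CPM in WT 468-4 and 7.78 CPM in Sp3+/- 697-4, like the 7.62 CPM of Sp3-/- 685-1. H2-D1 overlapped in the same way (1.76±0.49, adjusted p=0.0465, edgeR), with 119 CPM in WT 468-4 and 103 CPM in Sp3-/- 685-1. The class I heavy chains are alike in sequence and vary between mouse strains, so reads may be lost or assigned unequally among them. Tapbp, which holds class I molecules at the TAP transporter, and Erap1, which trims their peptides, are named after their values were seen, since with H2-K1 and H2-T23 they were called in each of the 7 fits without 1 library. Tapbp was at 97.4 to 116 CPM in WT, at 103 to 122 CPM in Sp3+/- and at 190, 177 and 178 CPM in Sp3-/- cells (0.77±0.09, adjusted p=0.0074, edgeR). Erap1 was at 29.2 to 38.3, at 33.1 to 40.5 and at 64.8, 84 and 66 CPM (1.06±0.14, adjusted p=0.0084, edgeR). In neither gene was WT 468-4 or Sp3+/- 697-4 the highest library of its genotype, and the part of macrophage RNA in Tapbp and Erap1 was not tested.

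**Figure D5:**
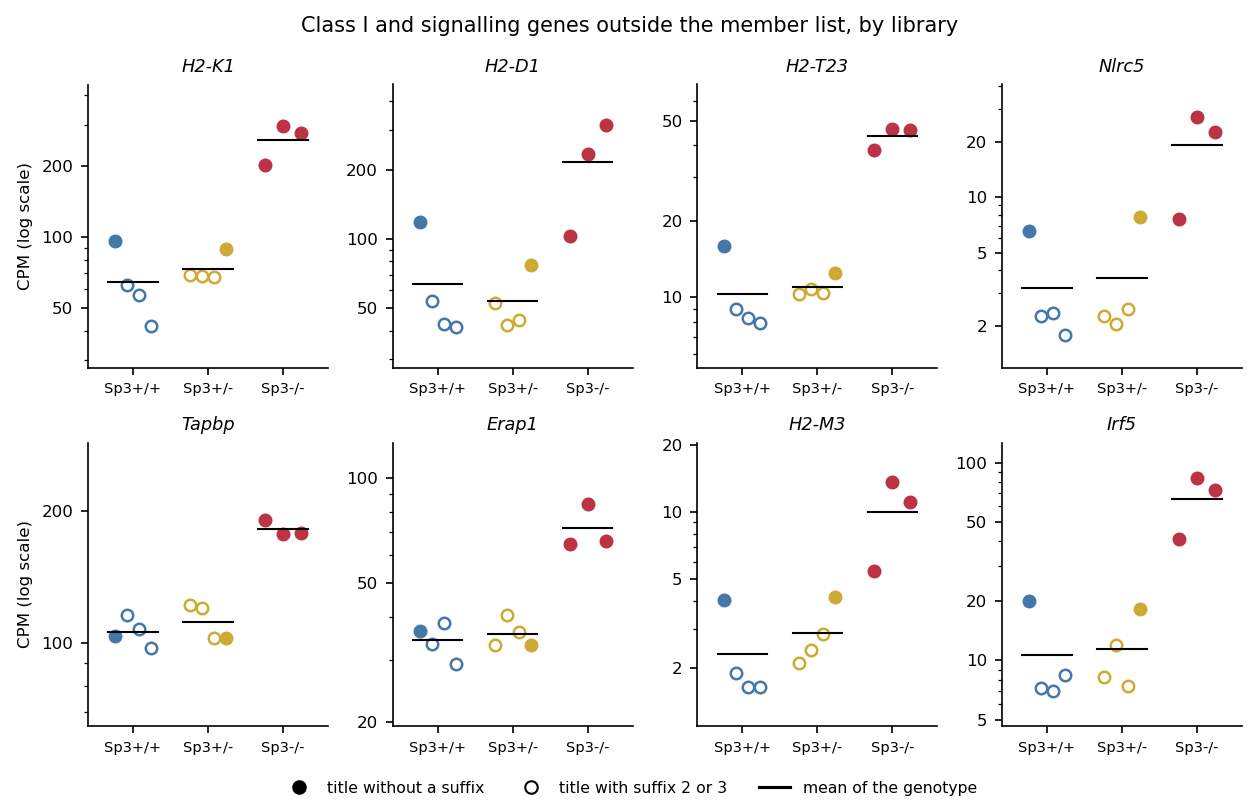
Levels of 8 genes outside the member list (CPM, log scale) in WT (Sp3+/+), Sp3+/- and Sp3-/- libraries, 1 point per library, filled where the title has no suffix, with genotype means as lines. H2-K1, H2-T23, Tapbp and Erap1 are higher in the 3 Sp3-/- libraries than in all 8 others, whereas H2-D1 and Nlrc5 overlap through WT 468-4 or Sp3+/- 697-4.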

How the data were processed

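RNA was extracted with TRIzol from the 11 cell preparations, and TruSeq libraries were read from a single end over 50 bases. Per the labels, reads were checked with FastQC 0.10.1, aligned with STAR 2.4.5a to mm10 and counted per gene with HTSeq. The strand setting and annotation version are not given in the sources used here. The deposited files hold whole-number counts per gene symbol, not normalized. Their 5 closing tallies of reads assigned to no gene (38.4% to 40.9% of a library, 30.1% to 33.7% not unique) were left out. Members and lists were chosen with earlier results of these data known. All members are named, and of each other list at most 4 called genes, those with the largest differences, plus ligands, receptors and class I chains. Some results that this rule would name are not reported here.

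Every gene that exceeded 1 CPM in 1 or more of the libraries fitted entered edgeR 4.0.16 (R 4.3.3; TMM, robust glmQLFit, glmQLFTest) and Benjamini-Hochberg adjustment, called below 0.05. Sp3-/- against WT used these 7 libraries, and comparisons with Sp3+/- used all 11. Standard errors follow from the test statistic. Alternatives were DESeq2 1.42.0, limma-voom (limma 3.58.1), other normalizations and filters, a block on the first title number, suffix covariates, subsets and each library left out. No 2 libraries of a genotype agreed within counting noise (lowest chi-square per degree of freedom 16.6). Data for Sp3-/- against WT (13667 genes) were simulated as independent libraries, with a dispersion of 0.05 for every gene and 200 genes changed. There edgeR recovered 74 of 100 genes changed 2-fold, 100 of 100 changed 4-fold, and called 5 unchanged ones. These rates do not give the power for the members, since real genes and libraries differ in spread. Coordinates and promoter windows are RefSeq GRCm38.p6. Transcript lengths are those of GENCODE vM39 canonical transcripts.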

Additional observations from a re-analysis of the deposited data

Results flagged for a closer look

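On the log2 scale, single libraries stood far from the rest of their genotype in 2 of 68 combinations of member and genotype tested. Chance alone flags about 1 in 20. Oas1a was at 1.49 CPM in WT 468-4, with 0.768 to 0.82 CPM in the other 3 WT libraries, a gap of 0.904 of the log2 range. Psmb8 was at 7.19 CPM in Sp3+/- 697-4, with 2.56 to 2.95 CPM in the other 3 Sp3+/- libraries, a gap of 0.864 of the log2 range. Both libraries have no title suffix and a summed macrophage marker level of 3750 and 3460 CPM, and the part of that level in the 2 values was not tested. Psmb8 in WT 468-4 (7.33 CPM) and Oas1a in Sp3+/- 697-4 (2.87 CPM) were also the highest of their genotype, but were not flagged on the log2 scale. The 3 libraries of the Sp3-/- group are too few for this test.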

How the results depend on the processing

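The member counts of Sp3-/- cells against WT (9 higher, 2 lower) stayed within 1.5 times under DESeq2, limma-voom, other normalizations and filters and a fit of all 11 libraries, although DESeq2 called 30.6% and that fit 28.1% of all genes, against 18.5%. The median of 0.55 became 0.35 under limma-voom and 0.36 when limma-voom also took a correlation between libraries of the same first title number. The title suffix as covariate left 4 higher and 0 lower, and 0 were called in either direction in the libraries without a suffix (3 against 1, or 3 against 2) and with the suffix of the count table. Title number 697 alone left 1 lower, where 21.1% of all genes were called. Leaving out 1 library gave 0 to 11 higher, 0 to 2 lower and medians of 0.22 to 0.73. For Sp3+/- against WT the median of 0.02 became -0.18 within title number 697. For Sp3-/- against Sp3+/- (10 higher, 2 lower, median 0.64), limma-voom gave medians of 0.43 and 0.44, the title suffix as covariate left 2 higher and 0 lower, and 0 were called in either direction in the libraries without a suffix, within title number 697 and with the suffix of the count table. Leaving out 1 library gave 4 to 13 higher, 2 lower and medians of 0.34 to 0.73. The cause of these changes was not tested. The 3 against 2 fit and the count table suffix were chosen after the data were seen. Nothing states that libraries with the same first title number share a litter. As a replicate block that number gave 11 higher and 2 lower members against WT (28.7% of all genes). Against Sp3+/- it gave 7 higher and 3 lower (20.9% of all genes), and the medians were 0.46 and 0.51. Under the block Ifih1 lost its call against WT (adjusted p=0.0616, edgeR) and Oas2, Psmb9 and Isg15 gained one. Oas2 exceeded 1 CPM in Sp3-/- libraries only, so its call is not independent of being high there. Against Sp3+/- Ifit1, Bst2 and Isg15 lost theirs under the block and Irgm1 gained one, as lower. No called member reversed. Members under about 1 CPM rest on few reads, and 3 reads correspond to 0.0506 to 0.305 CPM.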
